A study of Mus musculus with 12 samples.

Results

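Mouse eosinophils exposed together to an antibody against Siglec-F and to interleukin-33 (IL-33) were compared with eosinophils that received an isotype control antibody. The comparison takes the 3 libraries labelled for both stimuli and the 3 labelled isotype, 6 of the 12 RNA sequencing libraries in the series, and covers all genes. In the combined group, cells were kept with 5 µg/mL of a purified rat antibody to mouse Siglec-F (clone E50-2440) and 10 ng/mL of recombinant murine IL-33 for 4 h. In the isotype group, purified rat IgG2a without specificity for Siglec-F was given for the same 4 h and no IL-33 was added. The labels name more than 1 supplier of the IgG2a and do not say which library received which.

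All 6 libraries came from eosinophils sorted from spleen by high side scatter and green fluorescence, out of IL-5tg_4get/C57BL/6 mice. These mice carry an interleukin-5 transgene, which causes eosinophilia, and 4get, a green fluorescent protein reporter of the interleukin-4 gene. The isotype cells carry the transgene and the reporter too, so neither group stands for resting eosinophils of an unmodified mouse. Whether replicate libraries stem from different mice or cultures is not in the labels, so each p-value reflects the variation among these libraries alone, and that variation may be technical. The other groups of the series received IL-33 alone or the antibody alone, and IL-33 alone is used further on.

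Siglec-F is a receptor on eosinophils that binds sialic acid and carries inhibitory motifs in its cytoplasmic tail. IL-33 is an alarmin released by damaged cells. It binds the receptor chain ST2, encoded by Il1rl1, together with the co-receptor encoded by Il1rap, and signals through MyD88 and IRAK kinases to the transcription factor NF-kB and to MAP kinases. Inhibitors of NF-kB such as IkB alpha are themselves NF-kB targets, so the pathway induces its own brakes.

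Combined libraries 2 and 3 stood apart from the rest. At least 1 count was found for 19829, 15555 and 29990 genes in combined libraries 1, 2 and 3, against 20802, 20916 and 20228 genes in isotype libraries 1, 2 and 3. Combined library 3 held 5927 genes found in no other of the 12 libraries, while the isotype libraries held 138 to 235 such genes. Total counts lay between 12663407 and 17137988 in the combined group and between 12046727 and 14636985 in the isotype group. The share of counts in ribosomal protein genes was 1.73%, 3.35% and 3.90% in combined libraries 1, 2 and 3, against 1.91% to 2.64% in isotype libraries. The median standard deviation (SD) between libraries of log2 CPM, a gene's count scaled to the library total, was 0.332 in the combined group and 0.154 in the isotype group, over 9161 genes. Over the 500 most variable genes, component 1 of a principal component analysis held 70.0% of the variance and separated the groups. Component 2 held 17.7% and separated combined library 2 from the other 5.

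**Figure D1:**
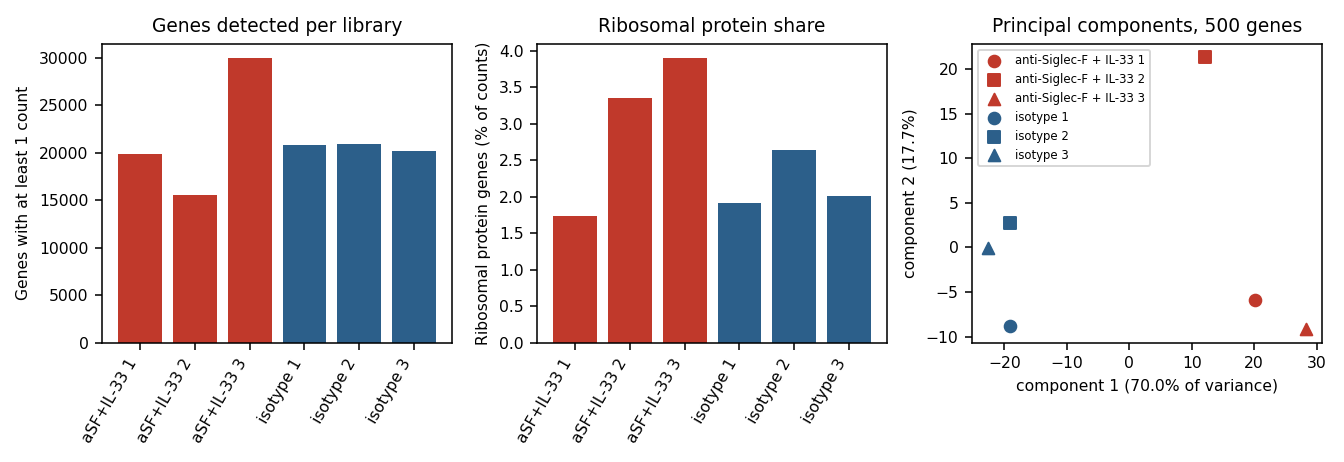
Genes detected, share of counts in ribosomal protein genes and the principal components of the 500 most variable genes, for 3 combined libraries (red; aSF+IL-33 stands for anti-Siglec-F plus IL-33) and 3 isotype libraries (blue). All 3 combined libraries lie outside the isotype range in both bar panels, libraries 2 and 3 by more than library 1, and combined library 2 is alone at the top of component 2.

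The cells carried eosinophil transcripts in both groups. Siglecf itself (ENSMUSG00000039013, mm10 chr7:43351341-43359531) had 606, 673 and 572 CPM in combined libraries and 913, 789 and 932 CPM in isotype libraries. The groups did not overlap, but the log2 fold change of -0.47 (SE 0.17) was not called (edgeR adjusted p = 0.151). DESeq2 gave the same -0.47 and did call it (DESeq2 adjusted p = 0.0336). The eotaxin receptor gene Ccr3 had 1447, 1717 and 1328 CPM, against 1633, 1715 and 1858 CPM with isotype, and these overlapped. The granule protein genes Prg2 (major basic protein) and Epx (eosinophil peroxidase) spread more within groups than between them. Prg2 had 1772, 896 and 5372 CPM in combined libraries and 2826, 1553 and 658 CPM in isotype libraries. Of 12 eosinophil markers 0 were called, with a median log2 fold change of 0.18. Il5ra, the interleukin-5 receptor chain, lay at -0.50 on that scale (edgeR adjusted p = 0.207).

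Of 77 markers of other cell types that were tested, 5 were called (6.49%), against 5.5% of all genes tested. Of those that passed the expression filter, 0 of 12 neutrophil, 0 of 12 B and plasma cell, 0 of 14 T cell, NK and ILC2, 0 of 7 basophil and mast cell, 0 of 6 erythroid and 0 of 2 platelet markers were called. Among monocyte and macrophage markers 3 of 15 rose, and the summed level of the list was 1507 to 2073 CPM in combined libraries and 886 to 1011 CPM in isotype libraries. Much of that sum, and of its rise, came from Csf1r, the receptor for colony-stimulating factor 1. Csf1r had 1066, 944 and 1052 CPM in combined libraries and 425, 407 and 467 CPM in isotype libraries. Spic, a factor of iron-recycling macrophages, had 17.2, 5.30 and 26.2 CPM in combined libraries and 1.31, 1.33 and 0.549 CPM in isotype libraries. Both kept their calls whichever library was left out, and the third, the iron exporter gene Slc40a1, did not. Of the 15 tested, 9 had a positive log2 fold change, and the median was 0.42. Among members not called, C1qa was low, at 1.35 to 1.97 CPM in combined and 1.55 to 1.76 CPM in isotype libraries. Cd68 had a log2 fold change of -0.10. No marker of the list was at 0 in all 6 libraries. Batf3, a factor of dendritic cells and activated lymphocytes, rose as 1 of 5 dendritic cell markers, and Pecam1 as 1 of 4 stroma and endothelium markers. The summed level of stroma and endothelium markers was 494 to 546 CPM in combined and 296 to 337 CPM in isotype libraries. The part of these cells in the results was not tested.

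Over all 13419 genes that passed the filter, edgeR's quasi-likelihood test called 738 genes, 5.5% of those tested, at a Benjamini-Hochberg adjusted p under 0.05. Of these 482 were higher with both stimuli (3.59% of genes tested) and 256 were lower (1.91%), and 556 changed at least 2-fold (4.14%), 368 higher (2.74%) and 188 lower (1.4%). The median log2 fold change of all genes tested was 0.01. Libraries of the groups did not overlap for 3808 genes (28.4%), 1703 higher (12.7%) and 2105 lower (15.7%), and these included the 738 called. Only 159 of the called genes (1.18% of genes tested), 130 higher (0.969%) and 29 lower (0.216%), kept the call in each of 6 fits that left out 1 library. The smallest count was 167, without isotype library 3, and the largest was 2123, without combined library 1. Over these 6 fits the share of genes called higher ran from 0.952% to 9.37% and the share called lower from 0.226% to 5.92%, against which counts of list members in them are to be read.

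The 482 genes called higher had a median log2 ratio to the isotype mean of 1.31, 1.08 and 1.55 in combined libraries 1, 2 and 3. Library 3 was the highest of the 3 for 285 of them, library 1 for 150 and library 2 for 47. For the 256 genes called lower the medians were -1.10, -1.18 and -1.35. When libraries 2 and 3 were left out and library 1 was tested in a fit of the 10 libraries that remained in the series, 651 genes were called, 521 higher (3.25% of the 16015 tested) and 130 lower (0.812%). That fit assumes that the lone library varies like the other groups, and 385 of its calls were shared with the 738. It is called the library 1 fit from here on.

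**Figure D2:**
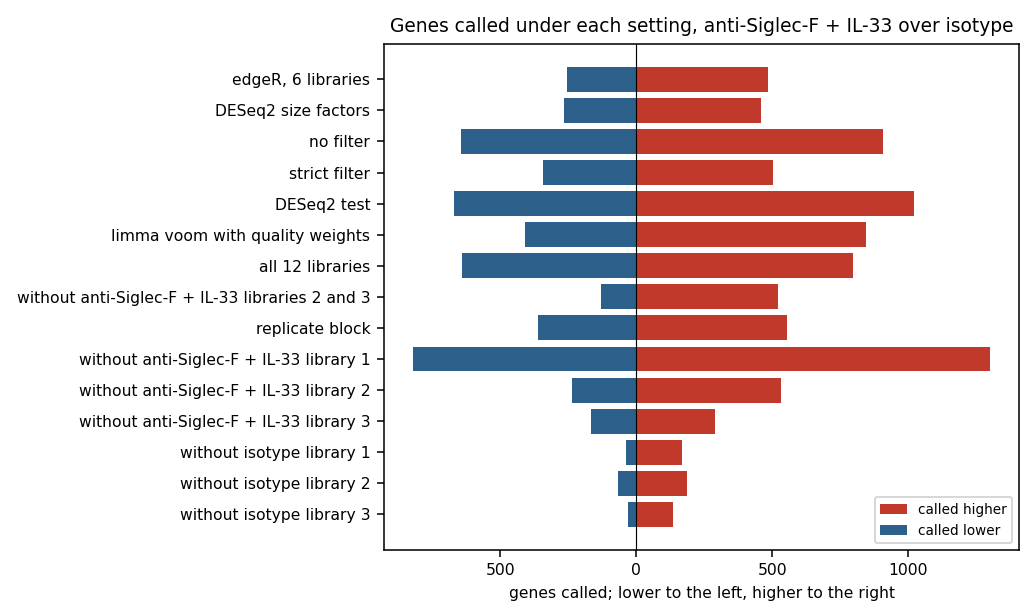
Number of genes called (horizontal axis; higher to the right in red, lower to the left in blue) in the 6-library fit and under each other setting. Leaving out isotype library 3 gave 167 calls and leaving out combined library 1 gave 2123.

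Ptgs2 (ENSMUSG00000032487, mm10 chr1:150100031-150108227), the inducible cyclooxygenase of prostaglandin synthesis, had 711, 104 and 553 CPM in combined libraries and 2.94, 2.51 and 1.33 CPM in isotype libraries. Its log2 fold change of 7.68 (SE 0.76, edgeR adjusted p = 0.00133) was the largest of the 738 called genes. Il6 (mm10 chr5:30013114-30019981), which encodes interleukin-6, had 387, 145 and 723 CPM with both stimuli and 2.94, 2.07 and 1.88 CPM with isotype. Combined library 2 was the lowest of its group for both genes, and the lowest combined value still lay far above the highest isotype value.

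Of 18 cytokine and growth factor genes tested, out of 27 listed, 9 rose and 0 fell, and 8 of the 9 kept the call in every fit with a library left out. The median log2 fold change of the tested members was 1.53, and 10 rose in the library 1 fit. A gene can pass the expression filter through its higher group alone, so members that passed are not a fair sample of the list. Il1b (mm10 chr2:129364570-129371139), interleukin-1 beta, had 2081, 856 and 2740 CPM in combined libraries and 14.7, 14.3 and 18.8 CPM in isotype libraries, a log2 fold change of 6.93 (SE 0.47, edgeR adjusted p = 0.000601). Its antisense neighbour Il1bos rose as well, and the strand setting of the counting is not given in the sources used here, so reads of this pair cannot be told apart. Il1a had 211, 85.5 and 228 CPM, against 3.52, 3.62 and 5.80 CPM with isotype. Tnf, tumour necrosis factor, had 220, 177 and 350 CPM in combined libraries and 23.6, 21.0 and 20.1 CPM in isotype libraries, a log2 fold change of 3.57 (SE 0.27, edgeR adjusted p = 0.000601). In each of these genes every combined library lay above every isotype library, and no called gene had groups that overlapped.

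The type 2 cytokine genes did not move together. Il13 had 439, 204 and 568 CPM with both stimuli and 20.5, 20.9 and 20.8 CPM with isotype, a log2 fold change of 4.32 (SE 0.36, edgeR adjusted p = 0.000783). Il5 (mm10 chr11:53720794-53725106), the eosinophil growth factor that these mice also carry as a transgene, had 1023, 681 and 1033 CPM in combined libraries and 280, 277 and 274 CPM in isotype libraries. It rose by a log2 fold change of 1.76 (SE 0.20, edgeR adjusted p = 0.00246), and transcripts of the transgene and of the native gene cannot be told apart in these counts. Il4, which drives the reporter used for sorting, had 270, 132 and 168 CPM with both stimuli and 163, 118 and 136 CPM with isotype. The Il4 libraries overlapped, and its log2 fold change of 0.49 was not called (edgeR adjusted p = 0.315). In the library 1 fit Il4 was called, at 1.01 on the log2 scale (edgeR adjusted p = 0.0371).

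The antagonist gene Il1rn and the subunit gene Ebi3 rose beside the cytokines. Il1rn, the secreted antagonist of interleukin-1 receptors, had 3544, 3924 and 4135 CPM in combined libraries and 981, 1148 and 1395 CPM in isotype libraries, a log2 fold change of 1.76 (SE 0.19, edgeR adjusted p = 0.00198). Ebi3, a subunit of interleukins 27 and 35, had 184, 217 and 280 CPM, against 73.0, 76.3 and 73.8 CPM with isotype. For these genes combined library 2 was not the lowest, unlike for Il6 and Il1b. Csf1 rose by 0.85 and lost the call when combined library 3 or any isotype library was left out, with an edgeR adjusted p of up to 0.182. Csf2 had 5 counts in combined library 3 and 0 in the other 5, so it was not tested.

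Chemokine genes rose in 8 of 12 tested cases, out of 19 listed, and 0 fell. The median log2 fold change of the tested members was 2.77. Here too a gene can pass the filter through its higher group alone, so this is not the median of the whole list. Ccl3 (mm10 chr11:83647844-83649355), which draws monocytes and lymphocytes, had 1384, 545 and 2099 CPM in combined libraries and 20.6, 21.9 and 14.3 CPM in isotype libraries, a log2 fold change of 6.19 (SE 0.51, edgeR adjusted p = 0.00078). Ccl4, which shares a receptor with it, had 269, 158 and 622 CPM, against 4.90, 8.27 and 4.47 CPM with isotype. The neutrophil attractants Cxcl2 and Cxcl3 had log2 fold changes of 6.57 and 5.36. Cxcl10 was low throughout, at 7.74, 3.79 and 8.79 CPM in combined libraries and 0.587, 0.812 and 0.235 CPM in isotype libraries. These 5 chemokine genes kept their calls whichever library was left out. Ccl24, an eotaxin, and Ccl22 lost theirs without combined library 3 or any isotype library, and Ccl9 also without combined library 2. Ccl17, a ligand for type 2 helper cells, had 1.83, 2.19 and 6.47 CPM, against 1.24, 0.960 and 0.941 CPM with isotype, and was not called (edgeR adjusted p = 0.119).

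**Figure D3:**
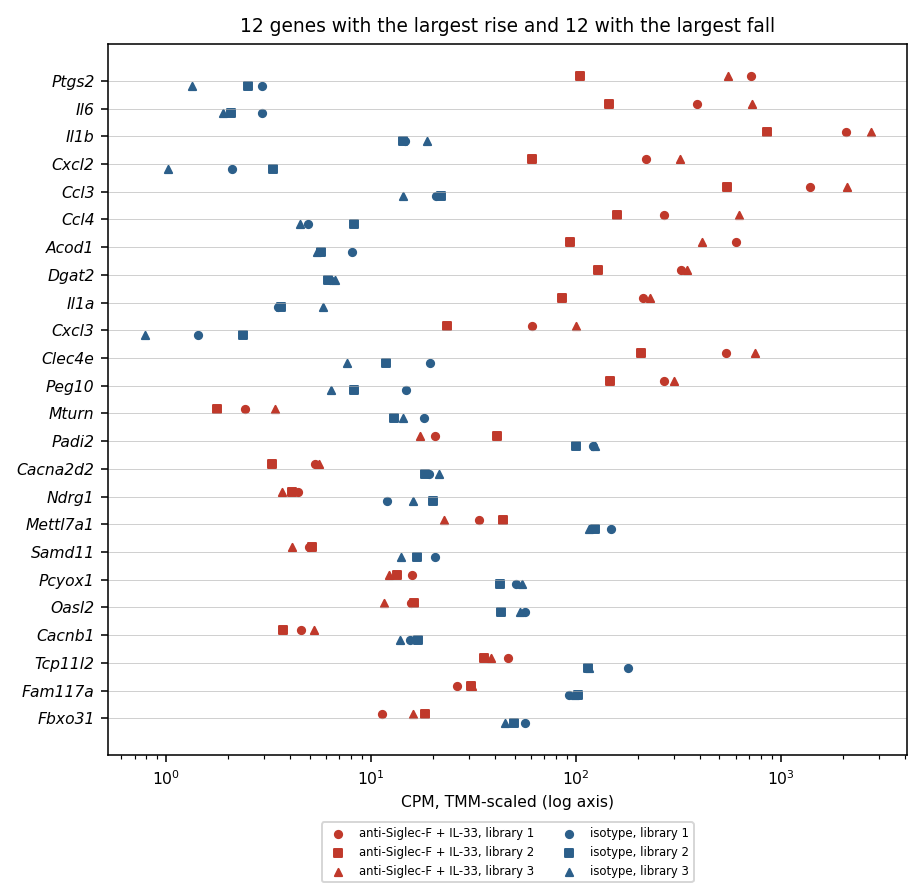
CPM on a log axis of the 12 genes with the largest rise and the 12 with the largest fall among genes that average at least 5 CPM and kept the call whichever library was left out; each point is 1 library, red for combined and blue for isotype. Squares mark library 2, which is the lowest combined library for each of the 12 genes that rose, such as Ptgs2 at 104 CPM and Clec4e at 208 CPM. The choice of genes required groups that do not overlap.

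Regulators of NF-kB rose in 13 of 25 cases and 0 fell, with a median log2 fold change of 1.04, and 16 rose in the library 1 fit. Nfkbia (mm10 chr12:55489410-55492647), which encodes the inhibitor IkB alpha, had 762, 514 and 886 CPM in combined libraries and 70.3, 79.5 and 79.9 CPM in isotype libraries, a log2 fold change of 3.28 (SE 0.24, edgeR adjusted p = 0.000601). Nfkbiz, a nuclear IkB protein that co-activates secondary targets, had 407, 133 and 272 CPM, against 34.3, 35.0 and 37.7 CPM with isotype. The subunits of the non-canonical arm also rose: Nfkb2 had 568, 331 and 547 CPM with both stimuli and 98.8, 104 and 106 CPM with isotype, and Relb 201, 239 and 268 CPM against 44.3, 54.2 and 49.4 CPM. The canonical subunit genes Nfkb1, Rel and Rela had log2 fold changes of 0.75, 1.04 and 0.37 and were not called (edgeR adjusted p = 0.0778, 0.0935 and 0.217).

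Further brakes of the pathway were among the members that kept the call in each fit with a library left out. These were Tnip1, a partner of the deubiquitinase A20, with a log2 fold change of 1.94, the inhibitor gene Nfkbie with 1.68, and Zc3h12a with 1.98. Zc3h12a encodes Regnase-1, a ribonuclease that degrades cytokine transcripts, and its relative Zc3h12c had 40.3, 14.7 and 24.9 CPM in combined libraries and 3.79, 1.92 and 2.90 CPM in isotype libraries. They were the 2 of 10 mRNA decay genes called, while Zfp36, which encodes tristetraprolin, was not (0.58, edgeR adjusted p = 0.086). Tnfaip3, which encodes A20, rose by 1.44 and lost the call without isotype library 2 or 3 (edgeR adjusted p up to 0.0613). Traf1 and Bcl3 lost theirs without isotype library 3, and Nfkbib, Nfkbid and Otulin whichever isotype library was left out.

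The promoters of Nfkbia and Il6 are shown because Il6 had one of the largest rises, Nfkbia had the largest rise among the NF-kB regulators, and each window holds a match to the kappaB consensus, the DNA sequence that NF-kB dimers bind. The windows run from 250 bases before to 50 bases after the start, 5′ to 3′ on the gene's strand, from RefSeq on GRCm38.p6, and capitals mark the match, which may read on either strand. The Nfkbia window is chr12:55492598-55492897 on the minus strand and the Il6 window is chr5:30012864-30013163 on the plus strand.
Nfkbia: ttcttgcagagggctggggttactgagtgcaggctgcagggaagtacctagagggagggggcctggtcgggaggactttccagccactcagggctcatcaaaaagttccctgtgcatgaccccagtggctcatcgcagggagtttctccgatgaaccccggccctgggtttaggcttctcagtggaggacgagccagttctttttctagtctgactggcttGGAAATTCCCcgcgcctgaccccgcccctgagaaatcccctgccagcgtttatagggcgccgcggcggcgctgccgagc
Il6: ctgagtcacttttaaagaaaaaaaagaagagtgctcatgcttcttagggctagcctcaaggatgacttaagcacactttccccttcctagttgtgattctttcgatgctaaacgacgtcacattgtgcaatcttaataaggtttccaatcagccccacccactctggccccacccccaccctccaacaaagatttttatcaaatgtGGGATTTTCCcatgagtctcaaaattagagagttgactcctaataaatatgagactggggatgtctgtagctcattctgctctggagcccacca
A kappaB match stood in 86 of 476 windows of genes called higher (18.1%), in 20 of 261 windows of genes called lower (7.66%) and in 1168 of 11294 windows of all protein-coding genes tested (10.3%). It stood in 9 of 16 windows of the NF-kB regulators that rose, in 4 of 6 of the chemokines that rose and in 3 of 11 of the cytokines that rose. The AP-1 motif TGANTCA, read on both strands, stood in 10.5%, 5.75% and 4.91% of the windows of higher, lower and all genes. Some genes have more than 1 window, others have none, and a match does not show that a factor was bound.

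Of 16 genes of IL-33 receptor signalling 2 rose and 0 fell, with a median log2 fold change of 0.21, and 2 rose in the library 1 fit. Both are IRAK family genes. Irak3 (mm10 chr10:120141648-120202130), which encodes a brake on signalling by interleukin-1 family receptors, had 414, 277 and 361 CPM in combined libraries and 52.7, 45.4 and 57.5 CPM in isotype libraries, a log2 fold change of 2.80 (SE 0.21, edgeR adjusted p = 0.000601). Irak2 had 202, 166 and 168 CPM, against 72.5, 95.1 and 81.0 CPM with isotype, and lost the call without isotype library 1 or 3 (edgeR adjusted p up to 0.0724). The receptor chain gene Il1rl1 had 857, 770 and 567 CPM with both stimuli and 539, 518 and 570 CPM with isotype. These overlapped, and neither Il1rl1 (log2 fold change 0.48, edgeR adjusted p = 0.198) nor Il1rap (0.37, edgeR adjusted p = 0.592) was called.

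Of 22 immediate early genes 12 rose and 0 fell, with a median log2 fold change of 1.25, and 11 rose in the library 1 fit. Egr2, a zinc finger factor, had 163, 61.1 and 110 CPM in combined libraries and 16.9, 18.2 and 14.7 CPM in isotype libraries, a log2 fold change of 2.79 (SE 0.33, edgeR adjusted p = 0.00277). The nuclear receptor gene Nr4a1 had 201, 86.1 and 209 CPM, against 34.3, 43.5 and 38.3 CPM with isotype. Batf, Atf3, Ier3 and Ier5 also kept their calls whichever library was left out. Members of the original AP-1 dimer did not show this pattern: Fos and Fosb had log2 fold changes of -0.30 and 0.07 (edgeR adjusted p = 0.651 and 0.958) and Jun of 1.08 (0.191), while Junb rose by 1.29 and lost the call whichever isotype library was left out. Of 11 MAP kinase feedback genes 4 rose and 0 fell, led by Dusp5, a phosphatase of nuclear ERK, with 362, 178 and 257 CPM against 63.9, 57.9 and 72.3 CPM with isotype. Dusp6 and Spred1 lost the call without isotype library 1 or 3, and Dusp16 without combined library 3 or any isotype library.

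Of 11 survival genes (BCL2 and IAP families) 5 rose and 0 fell, with a median log2 fold change of 0.82, and 6 rose in the library 1 fit. Bcl2l1 (mm10 chr2:152780668-152831728), which encodes Bcl-xL, was among the most even of them, with 316, 364 and 350 CPM in combined libraries and 96.0, 123 and 99.8 CPM in isotype libraries (log2 fold change 1.74, SE 0.17, edgeR adjusted p = 0.00133). The Bcl2a1 copies a, b and d had log2 fold changes of 1.46, 2.38 and 2.20, and their near-identical sequences make the split between them uncertain. Mcl1 had 0.06 and was not called (edgeR adjusted p = 0.873). The kinase gene Pim2, a STAT5 target that supports survival, had 1062, 978 and 1331 CPM, against 285, 243 and 215 CPM with isotype. With Pim3 and Socs3 it made up the 3 of 11 JAK-STAT feedback and PIM genes that rose, and Socs3 lost the call without combined library 3 or any isotype library.

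Death genes rose in 3 of 15 cases and 0 fell, with a median log2 fold change of 0.27. They were Fas, Bcl2l11 (Bim) and Pmaip1 (Noxa), with log2 fold changes of 1.83, 1.33 and 0.98. None kept the call in all fits with a library left out: Fas lost it without isotype library 3 (edgeR adjusted p = 0.0528), and the others without combined library 3 or any isotype library. Bax had 1.33 and Bbc3 had -0.65, neither called (edgeR adjusted p = 0.0597 and 0.0893).

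Targets of NRF2, a factor that induces antioxidant and iron-handling genes, rose in 14 of 20 cases and 0 fell, with a median log2 fold change of 1.56, and 12 rose in the library 1 fit. Hmox1, heme oxygenase, had 2193, 576 and 2117 CPM in combined libraries and 116, 140 and 52.8 CPM in isotype libraries, a log2 fold change of 4.02 (SE 0.55, edgeR adjusted p = 0.00485). Fth1 (mm10 chr19:9982703-9985092), the ferritin heavy chain, had 17792, 15893 and 35256 CPM with both stimuli and 3359, 4637 and 2601 CPM with isotype, a log2 fold change of 2.74 (SE 0.35, edgeR adjusted p = 0.00331). Slc7a11, the cystine transporter that feeds glutathione synthesis, had 3739, 1225 and 1836 CPM, against 490, 353 and 285 CPM with isotype.

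Hmox1 and Fth1 kept the call whichever library was left out. Slc7a11, Srxn1, Ftl1 and Sqstm1 lost it without isotype library 3 (edgeR adjusted p up to 0.0543), and Prdx1 without isotype library 1 or 3. Txnrd1, Gclm, Gclc, Txn1, Pgd, Osgin1 and Nfe2l2, which encodes NRF2 itself, lost it without combined library 3 or any isotype library. Over the 6 such fits the list had between 2 and 16 members called. The antioxidant core motif TGACNNNGC, read on both strands, stood in 6 of 16 windows of the members that rose. The windows of Fth1 held 0 matches to it. The share of the motif was 20.4% in genes called higher, 10.7% in genes called lower and 14.6% in all genes. It can overlap the AP-1 motif.

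Hypoxia-response genes rose in 4 of 13 cases and fell in 1, with a median log2 fold change of 1.44, and 8 rose and 1 fell in the library 1 fit. Ero1l, an oxidase of the endoplasmic reticulum, had 1481, 574 and 1405 CPM in combined libraries and 240, 160 and 166 CPM in isotype libraries (log2 fold change 2.65, SE 0.36, edgeR adjusted p = 0.00459). Egln3, an oxygen-sensing hydroxylase, had 141, 86.6 and 194 CPM, against 23.4, 29.7 and 28.2 CPM with isotype. Both kept their calls in every fit with a library left out, as did the member that fell. It was Ndrg1, with 4.38, 4.12 and 3.68 CPM in combined libraries and 11.9, 19.9 and 15.9 CPM in isotype libraries, a log2 fold change of -1.92 (SE 0.27, edgeR adjusted p = 0.0052). Ndrg1 is known as a gene that hypoxia induces, so it ran against the direction of the others. P4ha1 and Hilpda rose by 2.02 and 1.44, and both lost the call whichever isotype library was left out.

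Glycolytic genes rose in 4 of 23 cases and 0 fell, with a median log2 fold change of 0.76, and 6 rose in the library 1 fit. Pfkl, a phosphofructokinase, had 146, 78.7 and 242 CPM in combined libraries and 33.9, 29.8 and 30.3 CPM in isotype libraries, and Tpi1 had 345, 278 and 742 CPM against 103, 105 and 115 CPM. No call in the list survived all fits with a library left out: Pfkl lost it without isotype library 3 (edgeR adjusted p = 0.0514), Tpi1, Pgk1 and Pgam1 lost it whichever isotype library was left out, and the last pair also without combined library 3. Between 0 and 10 members were called over those fits. The glucose transporter genes Slc2a1 and Slc2a3 had log2 fold changes of 0.75 and 0.06 (edgeR adjusted p = 0.057 and 0.927). The hypoxia core motif, ACGTG or GCGTG on either strand, stood in 61.3% of windows of genes called higher and in 62.1% of all windows.

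Heat shock genes rose in 7 of 20 cases and 0 fell, with a median log2 fold change of 0.60, and 9 rose in the library 1 fit. The inducible chaperone genes Hspa1a and Hspa1b had the largest rises and are near-identical copies, so the split between them is uncertain. Hspa1a had 67.0, 11.4 and 25.9 CPM in combined libraries and 7.11, 3.91 and 3.53 CPM in isotype libraries, a log2 fold change of 2.87 (SE 0.60, edgeR adjusted p = 0.0284). Combined library 1 was the highest and library 2 the lowest. The constitutive chaperone gene Hspa8 had 917, 760 and 1073 CPM, against 478, 477 and 374 CPM with isotype. All 7 members lost the call without isotype library 2 or 3, and between 0 and 9 members were called over the 6 fits with a library left out. A promoter of Hspa1a is shown because 4 of 5 windows of the chaperones that rose held the heat shock core GAANNTTC. These windows cover 4 of the 7 chaperones that rose. The core stood in 6.51%, 5.36% and 5.80% of windows of higher, lower and all genes. Its window is chr17:34972107-34972406 on the minus strand, from RefSeq on GRCm38.p6, and capitals mark the core.
Hspa1a: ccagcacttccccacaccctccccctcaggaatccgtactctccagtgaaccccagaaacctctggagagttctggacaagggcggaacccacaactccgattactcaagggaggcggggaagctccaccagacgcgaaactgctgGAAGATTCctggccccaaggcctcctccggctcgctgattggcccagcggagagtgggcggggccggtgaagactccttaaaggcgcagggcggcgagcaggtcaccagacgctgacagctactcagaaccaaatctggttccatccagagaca
The core reads the same on both strands and overlaps no other motif searched here, though the window also holds 1 kappaB match.

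Ribosomal protein genes had small positive values with few calls. All 81 tested had positive log2 fold changes, with a median of 0.73, and 1 was called, the low-abundance paralogue Rpl3l. Rps18 shows the pattern, with 169, 387 and 541 CPM in combined libraries 1, 2 and 3 and 181, 279 and 185 CPM in isotype libraries. Combined library 1 lay at the isotype level and libraries 2 and 3 above it, and 71 of the 81 were called when combined library 1 was left out, a fit that called 9.37% of all genes higher and 5.92% lower. Nuclear genes of oxidative phosphorylation were similar, with 29 of 30 positive, a median of 0.56, 1 called (Cycs, cytochrome c) and up to 18 called when a library was left out. Of 29 ribosome biogenesis genes 4 rose and 0 fell (median 0.49), with 2 in the library 1 fit. Since library 1 differs here from libraries 2 and 3, the part of the libraries' own differences was not tested.

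Lipid genes divided. Dgat2 (mm10 chr7:99153658-99182719), which catalyses the last step of triglyceride synthesis, had 325, 127 and 349 CPM in combined libraries and 6.27, 6.13 and 6.66 CPM in isotype libraries, a log2 fold change of 5.43 (SE 0.40, edgeR adjusted p = 0.000601). Its counterpart Dgat1, at -0.84 on the log2 scale, was not called (edgeR adjusted p = 0.179). With Hilpda, Dgat2 made up the 2 of 20 triglyceride and lipid droplet genes that rose, and the median of the list was 0.08. Cholesterol synthesis and uptake genes rose in 6 of 20 cases and 0 fell, with a median of 0.73, and 3 rose in the library 1 fit. Each of the 6 lost the call in at least 1 fit that left out a library, with an edgeR adjusted p of up to 0.234.

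Enzymes of prostaglandin and leukotriene synthesis rose in 4 of 13 tested cases and 0 fell, with a median log2 fold change of 0.12. Beside Ptgs2 they were Pla2g4a, the phospholipase that releases arachidonic acid, at 228, 182 and 226 CPM in combined libraries and 99.9, 71.6 and 93.0 CPM in isotype libraries, and Ptges3 and Pla2g7. Pla2g4a lost the call without isotype library 3 (edgeR adjusted p = 0.0528), and Ptges3 and Pla2g7 whichever isotype library was left out. Ptgs1, the constitutive cyclooxygenase, had -0.26, Alox5 had 0.03 and Alox15, a lipoxygenase abundant in eosinophils, had -0.55, none called (edgeR adjusted p = 0.499, 0.947 and 0.165). Acod1, which makes itaconate, had 604, 93.8 and 409 CPM, against 8.03, 5.69 and 5.41 CPM with isotype. It was 1 of 2 called among 9 genes of arginine, polyamine and itaconate metabolism, while Arg1 had 0.98 and was not called (edgeR adjusted p = 0.652).

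Pattern receptors rose in 8 of 20 cases and 0 fell, with a median log2 fold change of 0.67, and 9 rose in the library 1 fit. The C-type lectin genes Clec4e (Mincle), Clec4n (Dectin-2) and Clec4d led the list, and the proteins of the first pair signal through the Fc receptor gamma chain. Clec4e had 541, 208 and 749 CPM in combined libraries and 19.3, 11.7 and 7.60 CPM in isotype libraries, a log2 fold change of 5.31 (SE 0.54, edgeR adjusted p = 0.00133). Clec4n had 446, 308 and 920 CPM, against 36.5, 19.6 and 22.3 CPM with isotype. These lectins and Casp4 kept the call whichever library was left out, while Cd14, Tlr2, Tlr9 and Clec7a lost it in 2 to 4 of the 6 fits. Monocytes and macrophages also express these receptors. Of 15 markers of those cells tested, 3 were called higher, and much of the rise of their sum came from Csf1r. The part of such cells in the rise of these receptors was not tested. Fcer1g, the gamma chain itself, had 645, 1080 and 1213 CPM with both stimuli and 367, 463 and 411 CPM with isotype, and lost the call without combined library 3 or any isotype library.

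Surface molecules moved in both directions. Cd69, an early activation marker, had 125, 83.0 and 184 CPM in combined libraries and 10.9, 16.9 and 11.3 CPM in isotype libraries, a log2 fold change of 3.37 (SE 0.32, edgeR adjusted p = 0.00108). The checkpoint ligand gene Pdcd1lg2 (PD-L2) rose by 2.85, and Cd274 (PD-L1) by 1.46, with Cd274 losing the call whichever isotype library was left out. These were among 5 of 13 activation and co-stimulation genes that rose. Adhesion genes rose in 3 and fell in 2 of 19 cases, with a median of -0.01. Itga5, a fibronectin receptor chain, had 74.2, 41.1 and 52.2 CPM, against 13.9, 14.8 and 15.0 CPM with isotype, and Icam1 and Cd9 rose by 1.60 and 1.58. Itgb7 (mm10 chr15:102215995-102231944), which pairs with integrin alpha 4 in homing to the gut, had 197, 258 and 179 CPM with both stimuli and 642, 721 and 675 CPM with isotype, a log2 fold change of -1.64 (SE 0.20, edgeR adjusted p = 0.00281).

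Inhibitory receptors rose in 5 of 19 cases and 0 fell, with a median log2 fold change of 0.45, and 5 rose in the library 1 fit. Siglece (mm10 chr7:43651070-43660161), another sialic acid-binding receptor with inhibitory motifs, had 859, 1142 and 1021 CPM in combined libraries and 190, 233 and 234 CPM in isotype libraries, a log2 fold change of 2.25 (SE 0.20, edgeR adjusted p = 0.000849). It kept the call whichever library was left out. Pilra, Ceacam1, Lair1 and the phosphatase gene Ptpn6 (SHP-1) rose by 1.91, 1.74, 1.28 and 0.81 and each lost the call in some of those fits, while Ptpn11 (SHP-2) had 0.45 and was not called (edgeR adjusted p = 0.235). Of 26 cytokine receptor genes 5 rose and 1 fell, and Il2rg and Il10rb, the shared chains of the interleukin-2 and interleukin-10 receptor families, kept the call in every fit with a library left out. Il2rg had 141, 176 and 158 CPM, against 51.2, 72.6 and 62.9 CPM with isotype. Of 19 chemoattractant and lipid receptor genes 2 rose, Gpr35 and Ccr1, and 1 fell, S1pr4.

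**Figure D4:**
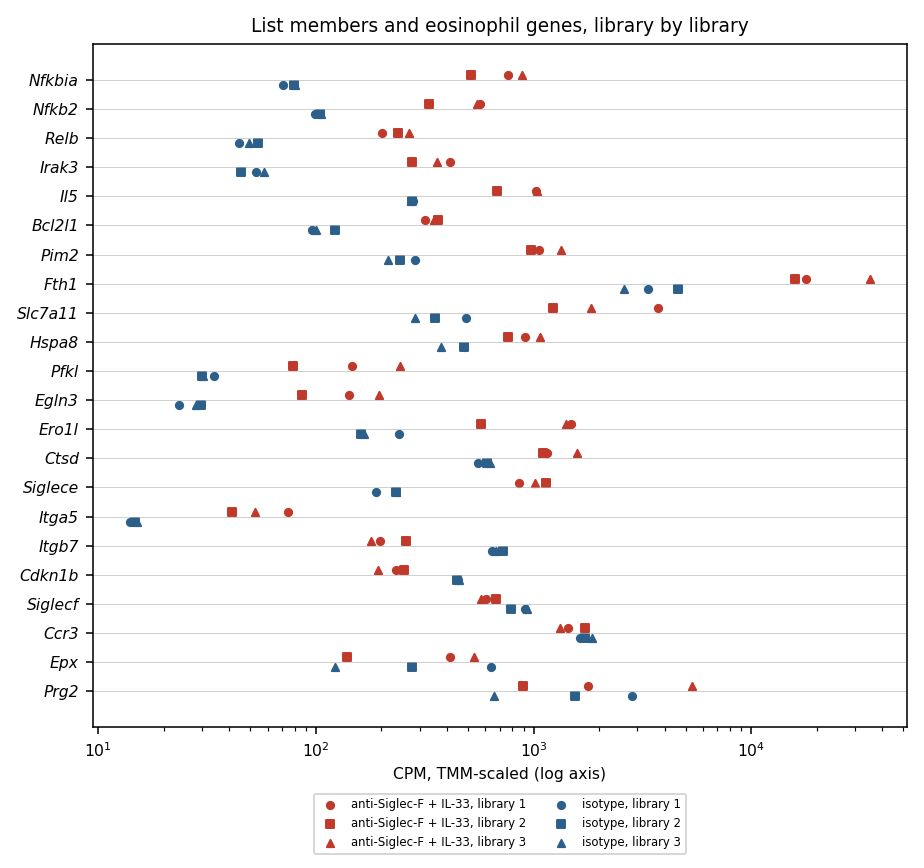
CPM on a log axis of called members of the gene lists and of 4 eosinophil genes without a call (Siglecf, Ccr3, Epx and Prg2), each point 1 library, red for combined and blue for isotype. Bcl2l1 and Siglece are even across the combined libraries, Fth1 has the highest level, and the points of Epx and Prg2 overlap between the groups.

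The largest falls were in genes of varied function, and their sizes were smaller than the largest rises. Mturn (mm10 chr6:54681624-54703851), which encodes maturin, had 2.41, 1.77 and 3.41 CPM in combined libraries and 18.02, 12.9 and 14.3 CPM in isotype libraries, a log2 fold change of -2.53 (SE 0.31, edgeR adjusted p = 0.00307). Padi2, a peptidylarginine deiminase, had 20.5, 41.1 and 17.2 CPM, against 121, 100 and 124 CPM with isotype. Genes of voltage-gated calcium channel subunits, Cacna2d2 and Cacnb1, had log2 fold changes of -2.01 and -1.73. In Fam117a and Pcyox1 the combined libraries lay close together, at 26.3, 30.5 and 31.0 CPM against 91.8, 102 and 98.4 CPM and at 15.9, 13.3 and 12.2 CPM against 50.9, 42.5 and 54.4 CPM with isotype. Mettl7a1, Samd11, Oasl2, Tcp11l2 and Fbxo31 completed the 12 with the largest falls, at log2 fold changes from -1.90 to -1.68. Oasl2 was the 1 of 20 interferon-stimulated genes called, and the median of that list was -0.11.

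Targets of FOXO factors and quiescence genes fell in 3 of 14 cases and 0 rose, with a median log2 fold change of -0.54, and 3 fell in the library 1 fit. Cdkn1b, which encodes the cell cycle inhibitor p27, had 234, 255 and 194 CPM in combined libraries and 447, 444 and 455 CPM in isotype libraries, a log2 fold change of -0.94 (SE 0.17, edgeR adjusted p = 0.0173). Pik3ip1, an inhibitor of PI3 kinase, and Sesn1 had -1.15 and -0.81. All 3 lost the call whichever isotype library was left out, and up to 7 members were called as lower in a fit with a library left out. Of 16 proliferation genes 0 were called, and the median was 0.17.

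**Figure D5:**
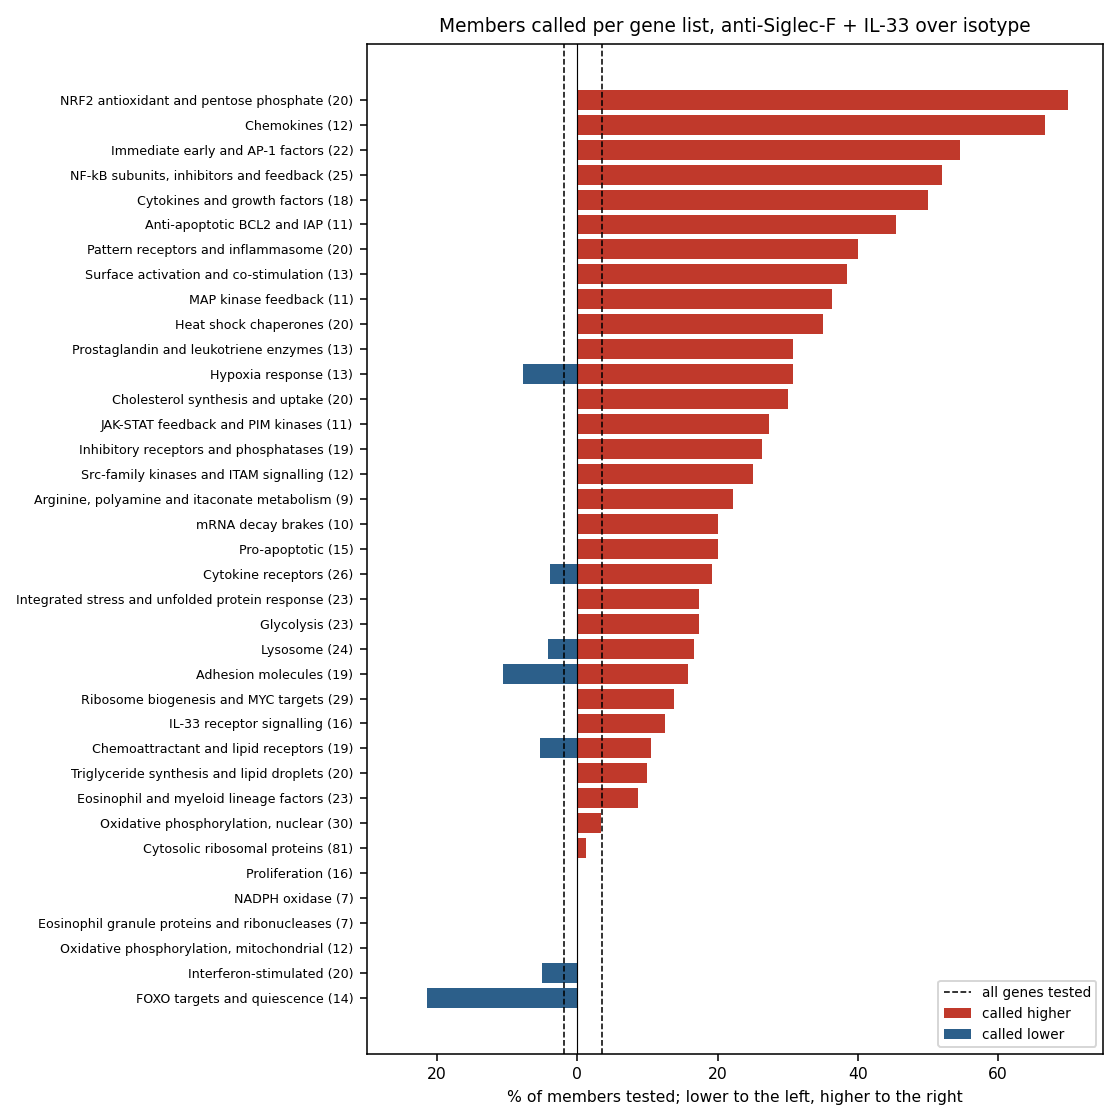
Share of tested members of each gene list called higher (right, red) or lower (left, blue) with both stimuli over isotype; the number tested is in parentheses and dashed lines mark 3.59% higher and 1.91% lower over all genes tested. The NRF2 list (14 of 20) and chemokines (8 of 12) reach furthest to the right, and the FOXO list (3 of 14) furthest to the left.

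The combined group was also set against the 3 libraries with IL-33 alone, which asks what the antibody added. Of 13489 genes tested 0 were called by edgeR's quasi-likelihood test, 0.0%, and the smallest adjusted p was 0.529, while 1258 genes (9.33%) had an unadjusted p under 0.05. That number ran from 379 (without IL-33 library 3) to 3082 (without combined library 1) when a library was left out. DESeq2 also called 0, with a smallest adjusted p of 0.0881, and 204 were called when no expression filter was used. Il6 had 387, 145 and 723 CPM with both stimuli and 330, 216 and 79.8 CPM with IL-33 alone, a log2 fold change of 1.00 (SE 0.59). Mturn had 2.41, 1.77 and 3.41 CPM, against 5.29, 8.11 and 7.05 CPM with IL-33 alone, a log2 fold change of -1.41 (SE 0.39). Neither gene was called. Siglece had 859, 1142 and 1021 CPM with both stimuli and 713, 851 and 556 CPM with IL-33 alone. Its log2 fold change of 0.52 (SE 0.24) was not called either. Other genes that rose over isotype differed little from IL-33 alone or lay lower. Irak3, Zc3h12a and Icam1 had log2 fold changes of 0.06 (SE 0.23), -0.01 (SE 0.21) and -0.21 (SE 0.28), none called. The absence of calls does not show that the antibody changed nothing in the presence of IL-33, since the combined libraries were spread more widely than those of any other group.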

How the data were processed

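RNA sequencing libraries of sorted mouse splenic eosinophils were used, 3 with both stimuli and 3 with isotype antibody, plus the remaining 6 of the series where named. The table the authors deposited holds unnormalized whole-number counts of 54532 genes, per the file headers. Per the submitters' processing notes, the build was mm10 and the tools included STAR 2.6.1d, featureCounts 1.5.0-p3, fastp, DESeq2 and FastQC 0.11.8. How strand was counted and from which annotation release is not given in the sources used here. A table of normalized values, also deposited, was not used. The gene length and coordinates printed are those of the authors' deposited table.

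The test was edgeR 4.0.16 (quasi-likelihood F test, run in R 4.3.3). Scaling was by TMM and low genes were removed by filterByExpr with the groups given. The fit took the 6 libraries of the comparison only and no replicate block. Adjustment followed Benjamini-Hochberg over all 13419 genes tested, and a gene counts as called at an adjusted p under 0.05. The comparison with IL-33 alone used the same test on its own 6 libraries. Standard errors (SE) were taken from the log2 fold change and its F statistic. CPM, a gene's count relative to the library total, used the TMM factors of all 12 libraries, which differ from those of the fit by up to 4.64%, and 1 count was worth 0.0653 to 0.0841 CPM. CPM are not divided by gene length, so levels are compared between libraries and not between genes. The test was also run on simulated counts in which each gene had the same spread in both groups. The real groups differ in spread, so that run does not bear on this difference. Alternatives were DESeq2 size factors, no filter, a filter at a mean of 5 CPM, DESeq2 1.42.0, limma 3.58.1 voom with quality weights, all 12 libraries, a fit without combined libraries 2 and 3, a replicate block, and leaving out each library in turn.

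Gene lists (37), marker lists (10), the tests and the named genes were chosen with earlier results of these data known. The rule for named genes takes the 12 largest rises and 12 largest falls among called genes that average 5 CPM or more, with no overlap between groups, a symbol that is no predicted model, and a call in each fit with 1 library left out. From each list it adds at most 4 called members, and always Ccl17, Ccl3, Ccr3, Csf2, Epx, Il13, Il1rap, Il1rl1, Il4, Il5, Il5ra, Il6, Prg2 and Siglecf. Other list members are given with their values, and some named by the rule are not reported here. All 865 listed entries were in the table and 792 passed the filter. The labels give no batch. In bulk counts, more cells of a type and more RNA per cell cannot be told apart. Promoter windows came from RefSeq (GRCm38.p6), and 8872 of 11131 protein-coding genes tested had an entry.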

Additional observations from a re-analysis of the deposited data

How the results depend on the processing

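Of the 738 calls (482 higher, 256 lower), 715 were shared with DESeq2 size factors and 692 with the filter at 5 CPM. Without the filter 1554 genes were called (908 higher, 646 lower), with DESeq2 1691 (1021 and 670), with limma voom 1253 (845 and 408), with all 12 libraries 1437 (796 and 641) and without combined libraries 2 and 3 651 (521 and 130). Leaving out 1 library gave 167 to 2123 calls, 135 to 1301 higher and 32 to 822 lower; the cause was not tested. Deviations of libraries with equal replicate numbers correlated at 0.49, 0.35 and -0.29, against -0.61 to 0.30 for unequal numbers. Whether the numbers pair the libraries is not in the labels and was not tested. A replicate block gave 916 calls (554 higher, 362 lower). Against IL-33 alone 204 genes were called without the filter and 0 under each other setting run. Of 120 named genes called, 120 kept the call with DESeq2 size factors and with DESeq2, 119 with voom and with all 12 libraries, 117 without the filter and with the block, 97 without combined libraries 2 and 3, and 61 to 120 with 1 library left out. Uncalled genes changed sign: Il1rap (-0.00239 to 0.579 over the fits with a library left out) and Epx (-0.0121) without combined library 1, Epx (-0.272) and Prg2 (-0.284 to 1.32) without combined library 3, and Epx (-0.0395 and -0.300, up to 0.898) without isotype library 2 or 3. Of genes given without a call, Siglecf, Ccl17, Nfkb1, Rel, Bax, Bbc3, Slc2a1 and Zfp36 were called with DESeq2, and Il4, Nfkb1, Rel, Jun, Bbc3, Slc2a1 and Ptpn11 without combined libraries 2 and 3. Depth of at least 12046727 counts per library limits genes near 1 count, such as Csf2.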

Other observations

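Some genes outside the lists were among the 159 that kept the call whichever library was left out. They were picked after their values were seen, and no gene list was tested here. Both A2 adenosine receptor genes rose. Adora2a had 232, 219 and 235 CPM in combined libraries and 31.7, 36.3 and 43.4 CPM in isotype libraries, a rise of 2.66 on the log2 scale (edgeR adjusted p = 0.000601), with less spread than Il6 or Ptgs2. Adora2b had 177, 140 and 235 CPM, against 43.4, 42.6 and 40.3 CPM with isotype. Hcar2, the receptor for nicotinic acid and ketone bodies, had 173, 64.3 and 188 CPM in combined libraries and 11.2, 9.45 and 6.19 CPM in isotype libraries. Nampt, which makes the NAD precursor nicotinamide mononucleotide, had 1375, 496 and 1351 CPM, against 172, 117 and 112 CPM with isotype, and Nadk, NAD kinase, rose by 1.65. The activating receptor genes Trem1, Trem3 and Treml4 rose by 2.11, 2.15 and 2.34. Slc11a1, a metal transporter of phagosomes, rose by 2.78, and Lipa, the lysosomal acid lipase, by 2.59.

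Padi4, a second peptidylarginine deiminase gene beside Padi2 on chromosome 4, had 105, 117 and 117 CPM in combined libraries and 386, 330 and 266 CPM in isotype libraries, a log2 change of -1.48 (edgeR adjusted p = 0.00322). Rasgrp2, an activator of the GTPase Rap1 in integrin signalling, had 79.3, 84.5 and 95.9 CPM, against 219, 300 and 217 CPM with isotype. Hdac5, a class II histone deacetylase, had 37.8, 35.1 and 33.7 CPM in combined libraries and 97.5, 88.7 and 83.7 CPM in isotype libraries. In these genes that fell the 3 combined libraries lay close together. They also lay below every isotype library, but the groups overlapped in none of the 738 called genes.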
